A study of Mus musculus with 8 samples.

Results

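The genes described here are the 53 members of a list of DNA replication and S phase genes, all of them found among the 13681 gene symbols of a table of RNA levels in 8 mouse thymic lymphomas. For each symbol the transcript entry with the highest mean over the libraries was used, and all 53 passed the filter on low values (1 FPKM or more in 2 or more libraries, which kept 12921 genes for testing). The tumours came from C57BL/6 mice lacking p53 (p53-/-), which were 10 weeks old when adenovirus was injected into the lymphoma, with tissue taken 48 hours later. The 2 control tumours carried the genotype ΔNfl/fl;p53-/- and received Ad-mCherry, a virus with the fluorescent protein mCherry alone. The 3 tumours labelled ΔNp63Δ/Δ;p53-/- and the 3 labelled ΔNp73Δ/Δ;p53-/- received Ad-CRE-mCherry, which also carries Cre recombinase. ΔNp63 and ΔNp73 are shorter products of the p53-related genes p63 and p73, without the N-terminal transactivation domain. The design asks how loss of either form changes the RNA of a p53-null lymphoma. Cre and the deletion came together, so their effects cannot be told apart in a comparison with control. The labels do not say which gene is floxed in the controls, what share of the tumour cells the virus reached, or whether each library is a different animal. The p-values below therefore describe the spread among these samples, which may be technical.

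DNA replication begins with licensing in G1, when the origin recognition complex, CDC6 and CDT1 load the MCM helicase onto origins as an inactive ring. At S phase entry the kinase CDC7-DBF4 and cyclin-dependent kinases activate the helicase with CDC45 and the GINS complex, polymerases held by the sliding clamp PCNA copy the strands, and nucleotide enzymes keep the precursor pools filled. Many of these genes are transcribed under E2F factors and are high in cycling cells, including the dividing immature thymocytes from which p53-null lymphomas of this kind arise.

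One library, ΔNp63-labelled replicate 2, differed from its group. Its median Pearson correlation with the remaining 7 over all genes tested was 0.848, against 0.915 to 0.957 for each of those, so results are given with and without it. Its correlation was highest with the controls (0.915 and 0.900). With its own group it was 0.847 and 0.848, and with the ΔNp73-labelled libraries 0.812, 0.837 and 0.863. The targeted gene Trp63 did not show a loss throughout the ΔNp63-labelled group. Its most abundant transcript entry was at 5.21 and 3.38 FPKM in control tumours, 6.57, 1.05 and 9.91 under the ΔNp63 label, and 13.8, 11.3 and 6.38 under the ΔNp73 label. Whether that transcript holds the deleted part was not examined, and the gene of p73 was not analysed here. T cell genes that define thymocytes were high in the controls, with a summed FPKM over 22 markers of 7566 and 8293. The sum was 4750 to 6151 in ΔNp63-labelled replicates 1 and 3, 3661 in replicate 2 and 3509 to 5534 in the ΔNp73-labelled libraries. Levels are given as FPKM, fragments scaled by transcript length and by library size, and the read depth behind them is unknown.

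By the entry used for each, all 53 genes were lower than in both controls in each of the 3 ΔNp73-labelled libraries and in ΔNp63-labelled replicates 1 and 3. Among all genes tested, 27.8% lay below both controls in those 5 libraries. The mean FPKM in the ΔNp73-labelled group was a median of 44.2% of the control mean over the members, and 32 members were under 50%. In ΔNp63-labelled replicates 1 and 3 the median was 42.3% and 40 members were under 50%. Replicate 2 of the ΔNp63-labelled group went the other way for most of the list. It was above both controls for 42 members, where 42.5% of all genes were. It was therefore also the highest of all 8 libraries for those 42 (31.5% of all genes). For the members this follows from the first count, since the other 5 libraries that received Cre were below both controls. Of the 11 others, 9 were below both controls (47.2% of all genes) and 2, Mcm4 and Dnmt1, lay between them.

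**Figure D1:**
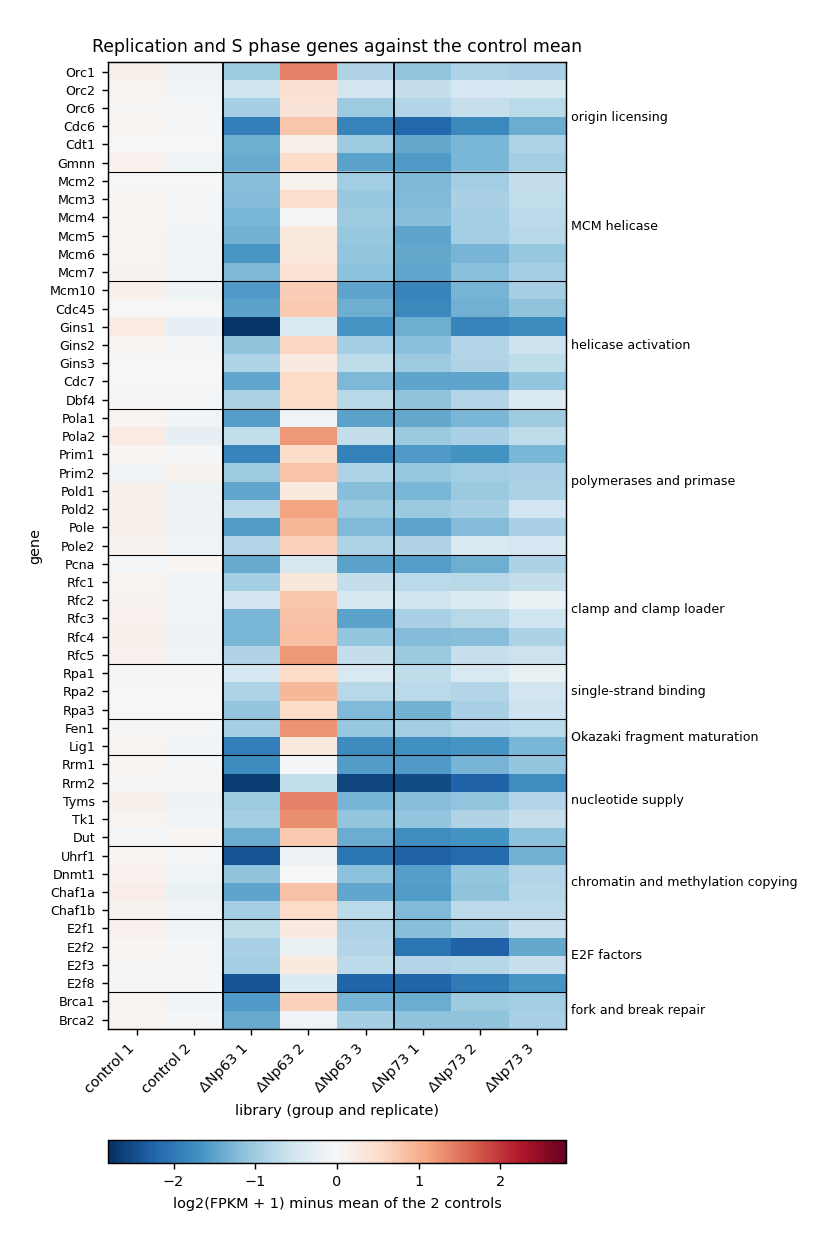
Level of each of the 53 genes (rows, grouped by role) in each library (columns) as log2(FPKM + 1) minus the mean of the 2 controls. Blue marks lower and red higher levels: the ΔNp73-labelled libraries and ΔNp63-labelled replicates 1 and 3 are blue throughout, while ΔNp63-labelled replicate 2 is red for most genes.

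Taken library by library, the median of the 53 genes on the log2(FPKM + 1) scale, relative to the control mean, was 0.07 and -0.07 in the controls. It was -1.26 and -1.09 in ΔNp63-labelled replicates 1 and 3, and 0.51 in replicate 2. In the ΔNp73-labelled libraries it was -1.26, -0.999 and -0.83. The median over all genes tested stayed between -0.09 and 0.00 in every library. The deposited values are quantile-normalised, which gives all libraries nearly the same distribution and holds that median near 0 in advance. Every member was below 0 in those 5 libraries, where the one nearest to 0 was at -0.46 (Rpa1) and -0.42 (Rpa1) in the ΔNp63-labelled ones and at -0.55, -0.37 and -0.20 (Rfc2 each time) in the ΔNp73-labelled ones.

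**Figure D2:**
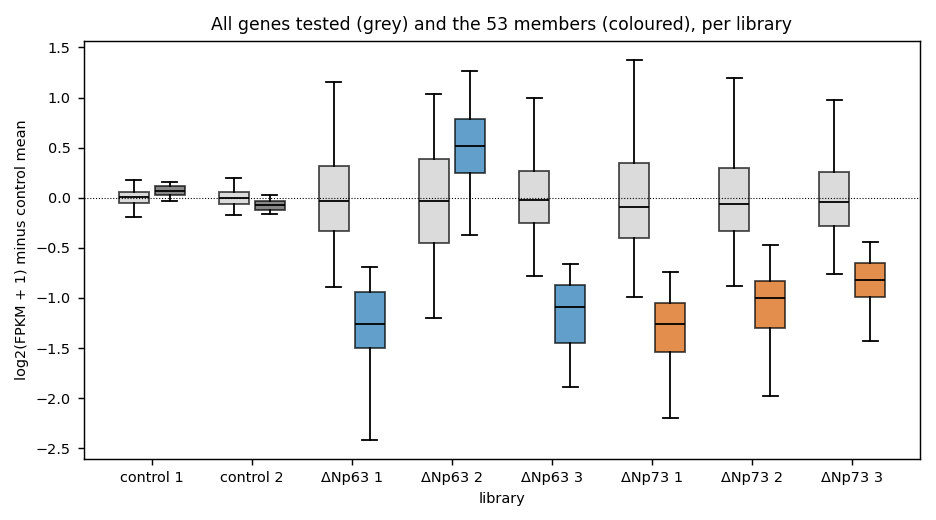
For each library, the spread of log2(FPKM + 1) minus the control mean over all genes tested (grey) and over the 53 replication genes (coloured). Boxes span the quartiles with the median as a line, and whiskers reach the 5th and 95th percentiles; the coloured boxes lie below 0 in 5 libraries and above it in ΔNp63-labelled replicate 2, at a median of 0.51.

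No member passed the test over all genes in the model with all 8 libraries. limma's moderated test of log2(FPKM + 1), with Benjamini-Hochberg adjustment over 12921 genes and a threshold of 0.05 (adjusted p, used throughout), called 0 of the 53 lower in the ΔNp73-labelled group against control, where 0.00774% of all genes were called lower. A share of 37.7% (20 of the 53) had an unadjusted p under 0.05 and were lower, against 9.83% for the whole table. The median log2 fold change (log2FC) of the members was -1.06, against -0.07 over all genes. In the ΔNp63-labelled group 0 were called lower (0.0619% of all genes), an unadjusted p under 0.05 was reached by 7, all lower (13.2%, against 7.03% for the whole table) and the median was -0.65, against -0.02. Groups did not overlap for 53 members in the ΔNp73-labelled comparison (35.7% of all genes were lower without overlap, and 56.7% had a log2FC below 0) and for 9 in the ΔNp63-labelled one (17.7%, with 52.3% of all genes at a log2FC below 0). All 53 members had a log2FC below 0 in each. Without ΔNp63-labelled replicate 2 the calls differed, and groups did not overlap for 53 members in each comparison (37.1% of all genes for ΔNp63, 35.7% for ΔNp73). Over 12782 genes, 52 of the 53 then fell in the ΔNp63-labelled group (10.8% of all genes, median -1.17) and 51 fell in the ΔNp73-labelled group (16.1% of all genes, median -1.06). The latter comparison uses that library only through the shared estimate of the spread. Members also passed in both comparisons with all libraries kept and weighted by their distance from their group. The share of all genes called in that fit is not given here, so no count of members is given for it. Without replicate 2, the exceptions were Rpa1 in both comparisons and Rfc2 in the ΔNp73-labelled one. The comparisons share the 2 controls, so they are not independent of each other.

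All 6 licensing genes fell in both comparisons with control once ΔNp63-labelled replicate 2 was left out (10.8% of all genes for ΔNp63, 16.1% for ΔNp73), and 0 of 6 passed with it. Gmnn encodes geminin, which binds CDT1 and blocks a second round of licensing, and had the highest level of the 6 licensing genes. It was at 40.6 and 34.1 FPKM in control tumours, 13.3, 53.8 and 12.46 under the ΔNp63 label, and 11.8, 14.6 and 18.6 under the ΔNp73 label. Replicate 2 alone exceeded the controls. Against control it was at 15.01 ± 3.40 FPKM (SD, n = 3) in the ΔNp73-labelled group and 37.4 ± 4.54 (SD, n = 2) in the controls (log2FC -1.28, SE 0.58, adjusted p = 0.254 by limma). Without replicate 2 the ΔNp63-labelled difference was a fall (log2FC -1.46, SE 0.20, adjusted p = 0.00397). Cdt1, the MCM loader that geminin inhibits, was at 26.8 and 27.6 FPKM in control tumours, 9.95, 30.0 and 12.99 under the ΔNp63 label, and 9.41, 10.6 and 14.6 under the ΔNp73 label. The ΔNp73-labelled libraries and 2 of the 3 ΔNp63-labelled libraries were below both controls (log2FC -1.19, SE 0.42, adjusted p = 0.175 for ΔNp73, and log2FC -0.75, SE 0.42, adjusted p = 0.483 for ΔNp63). Cdc6, the other loading factor, was chosen for description after its values were seen. It was at 15.3 and 14.3 FPKM in control tumours, 3.18, 26.3 and 3.30 under the ΔNp63 label, and 2.45, 3.51 and 5.02 under the ΔNp73 label, or 24.7% of control in the ΔNp73-labelled group and 177% in replicate 2. Orc2, a subunit of the origin recognition complex, differed least among the licensing genes in the ΔNp73-labelled group. Its FPKM were 10.6 and 9.43 (controls), 6.42, 13.9 and 6.74 (ΔNp63) and 5.93, 6.91 and 7.08 (ΔNp73), with replicate 2 again highest (log2FC -0.53, SE 0.30, adjusted p = 0.345 for ΔNp73).

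The MCM helicase genes, Mcm2 to Mcm7, encode the 6 subunits of the ring that unwinds DNA, and they differed from control by like amounts. In the ΔNp73-labelled group their log2FC ran from -1.27 to -0.94, and in the ΔNp63-labelled group from -0.82 to -0.60. Without replicate 2 the latter range was -1.37 to -1.08. Mcm7, the most abundant by FPKM, was at 86.8 and 75.5 FPKM in control tumours, 33.2, 107 and 36.2 under the ΔNp63 label, and 28.8, 35.6 and 42.1 under the ΔNp73 label. It was lower in 3 of 3 ΔNp73-labelled libraries (log2FC -1.18, SE 0.47, adjusted p = 0.215), a difference that passed without replicate 2 of the other group (log2FC -1.18, SE 0.16, adjusted p = 0.00289). Mcm4 had the smallest p of the 6 in the model with all libraries and was at 57.3 and 53.4 FPKM in control tumours, 22.2, 54.0 and 27.4 under the ΔNp63 label, and 23.7, 28.2 and 33.0 under the ΔNp73 label. In replicate 2 it lay between the controls, unlike Mcm7, and its ΔNp63-labelled difference was at log2FC -0.77, SE 0.35, adjusted p = 0.409. Mcm6, described after its values were seen, was at 69.5 and 63.1 FPKM in control tumours, 20.7, 81.1 and 30.3 under the ΔNp63 label, and 23.8, 26.4 and 31.2 under the ΔNp73 label. Replicate 2 was again the highest library.

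**Figure D3:**
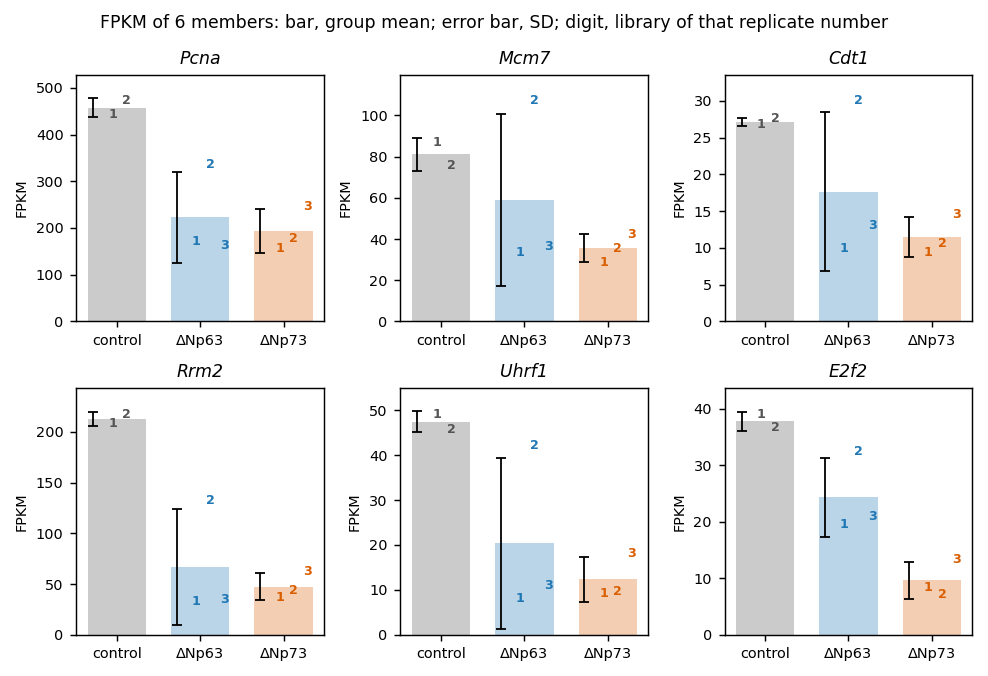
FPKM of Pcna, Mcm7, Cdt1, Rrm2, Uhrf1 and E2f2 in each library. Bars give group means, error bars the SD (n = 2 or 3) and digits the replicate number; replicate 2 of the ΔNp63-labelled group is the highest of its group in every panel, at 335 FPKM of Pcna against 171 and 162.

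The 7 helicase activation genes had a median log2FC of -1.34 in the ΔNp73-labelled group and -0.71 in the ΔNp63-labelled group. Gins1, a subunit of the GINS complex that joins CDC45 and the MCM ring at the fork, was the lowest of these relative to control in the ΔNp63-labelled group. It was at 24.6 and 17.8 FPKM in control tumours, 2.33, 15.98 and 5.99 under the ΔNp63 label, and 7.49, 5.04 and 5.48 under the ΔNp73 label, below both controls in 6 of 6 libraries that received Cre. A second, less abundant entry of Gins1 was above both controls in replicate 2. For the entry used, the difference was at log2FC -1.58, SE 0.59, adjusted p = 0.337 for ΔNp63 and at log2FC -1.67, SE 0.59, adjusted p = 0.181 for ΔNp73 by limma. Dbf4, the regulatory subunit of the CDC7 kinase, was the nearest to control of the 7 in the ΔNp73-labelled group, with FPKM of 17.1 and 16.5 (controls), 8.62, 24.4 and 9.46 (ΔNp63) and 7.17, 9.05 and 12.4 (ΔNp73) (log2FC -0.79, SE 0.42, adjusted p = 0.322). Its partner Cdc7 was at 34.4% of control in the ΔNp73-labelled group and 33.8% in ΔNp63-labelled replicates 1 and 3. Mcm10 and Cdc45, which act in the same step, were at 35.2% and 33.0% of control in the ΔNp73-labelled group and at 165% and 171% in replicate 2.

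The log2FC of the 8 polymerase and primase genes ran from -1.51 to -0.57 in the ΔNp73-labelled group. Pola1, the catalytic subunit of polymerase alpha, which starts each new strand with primase, was at 18.5 and 16.6 FPKM in control tumours, 5.41, 16.2 and 5.60 under the ΔNp63 label, and 5.83, 6.68 and 8.31 under the ΔNp73 label. All 6 libraries that received Cre were below both controls (log2FC -1.04, SE 0.42, adjusted p = 0.36 for ΔNp63, log2FC -1.24, SE 0.42, adjusted p = 0.168 for ΔNp73). Pola2, the accessory subunit of the same enzyme, was at 16.99 and 11.9 FPKM in control tumours, 8.42, 34.6 and 8.58 under the ΔNp63 label, and 6.41, 7.08 and 8.26 under the ΔNp73 label. Replicate 2 differed between these subunits, at 239.5% of the control mean for Pola2 and 92.3% for Pola1. The ΔNp63-labelled log2FC of Pola2 was near 0 (log2FC -0.05, SE 0.55, adjusted p = 0.982), and its mean FPKM in that group was above control (119%) while the log2FC was below 0. Pold2, the second subunit of the lagging-strand polymerase delta, was the most abundant of these 8 genes. Its FPKM were 45.1 and 36.7 (controls), 23.3, 88.3 and 19.4 (ΔNp63) and 19.1, 20.8 and 27.9 (ΔNp73), with a difference of log2FC -0.84, SE 0.58, adjusted p = 0.431 in the ΔNp73-labelled group. Prim1, the catalytic primase subunit, was at 33.8% of control in the ΔNp73-labelled group and 25.7% in ΔNp63-labelled replicates 1 and 3.

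Pcna, the sliding clamp, had the highest level of all 53 genes and was lower without overlap in both groups. It was at 443 and 472 FPKM in control tumours, 171, 335 and 162 under the ΔNp63 label, and 157, 178 and 245 under the ΔNp73 label. The differences were log2FC -1.12, SE 0.34, adjusted p = 0.278 for ΔNp63 and log2FC -1.26, SE 0.34, adjusted p = 0.119 for ΔNp73, and without replicate 2 both passed (log2FC -1.45, SE 0.20, adjusted p = 0.00455 and log2FC -1.26, SE 0.19, adjusted p = 0.00359). The clamp loader genes Rfc1 to Rfc5 each had a log2FC smaller in size than that of Pcna in both comparisons. Rfc3 was near Pcna in the ΔNp63-labelled group without replicate 2 (log2FC -1.38), and Rfc4 in the ΔNp73-labelled group (log2FC -1.10). Rfc2 was at 46.3 and 40.8 FPKM in control tumours, 30.1, 75.0 and 31.3 under the ΔNp63 label, and 29.3, 33.3 and 37.8 under the ΔNp73 label, the smallest difference of all 53 members in the ΔNp73-labelled group (log2FC -0.37, SE 0.38, adjusted p = 0.587). Rfc5 was at 20.03 and 16.8 FPKM in control tumours, 9.82, 43.9 and 11.2 under the ΔNp63 label, and 8.43, 11.4 and 11.7 under the ΔNp73 label, and its ΔNp63-labelled log2FC depended on replicate 2 (log2FC -0.09, SE 0.57, adjusted p = 0.962 with it, log2FC -0.75, SE 0.17, adjusted p = 0.0245 without it). The genes of replication protein A, which coats single-stranded DNA, were in the same range. Rpa1, the large subunit, was at 42.2 and 40.2 FPKM in control tumours, 29.6, 60.1 and 30.5 under the ΔNp63 label, and 24.8, 30.4 and 35.5 under the ΔNp73 label, and passed in neither comparison without replicate 2 (log2FC -0.44, SE 0.16, adjusted p = 0.0916 and log2FC -0.45, SE 0.15, adjusted p = 0.0536). Rpa3, the small subunit, was at 51.5 and 52.2 FPKM in control tumours, 23.5, 74.2 and 21.5 under the ΔNp63 label, and 20.2, 27.3 and 34.6 under the ΔNp73 label, with a difference of log2FC -0.93, SE 0.51, adjusted p = 0.327 in the ΔNp73-labelled group. Among genes that finish Okazaki fragments, Lig1, the ligase that seals them, was at 53.2 and 47.9 FPKM in control tumours, 12.6, 61.4 and 14.2 under the ΔNp63 label, and 14.7, 15.3 and 20.1 under the ΔNp73 label (log2FC -1.55, SE 0.61, adjusted p = 0.207 for ΔNp73). Fen1, the flap nuclease that trims them first, was at 53.1% of control in the ΔNp73-labelled group against 33.0% for Lig1, and at 248% in replicate 2 against 121%.

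Nucleotide supply held the largest difference of the list. Rrm2, the S phase subunit of ribonucleotide reductase, was at 208 and 217 FPKM in control tumours, 32.7, 132 and 35.1 under the ΔNp63 label, and 36.5, 43.4 and 62.6 under the ΔNp73 label. All 6 libraries that received Cre were below both controls, with group means of 66.7 ± 56.8 and 47.5 ± 13.5 FPKM (SD, n = 3) against 213 ± 6.69 (SD, n = 2). Neither difference passed with all libraries (log2FC -1.97, SE 0.57, adjusted p = 0.262 for ΔNp63, log2FC -2.17, SE 0.57, adjusted p = 0.115 for ΔNp73). Both did without replicate 2 (log2FC -2.61, SE 0.23, adjusted p = 0.00176 and log2FC -2.17, SE 0.21, adjusted p = 0.00111). Rrm1, the large subunit of the same enzyme, was also described after its values were seen. It was at 70.8 and 66.0 FPKM in control tumours, 19.4, 65.3 and 22.6 under the ΔNp63 label, and 22.0, 27.2 and 31.8 under the ΔNp73 label, and 39.4% of control in the ΔNp73-labelled group against 22.3% for Rrm2. Tyms and Tk1, which make thymidine monophosphate by synthesis and by salvage, were at 45.1% and 53.3% in that group. In replicate 2 they were at 276% and 254% of control.

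The 4 genes that copy chromatin and DNA methylation had a median log2FC of -1.15 in the ΔNp73-labelled group and -0.73 in the ΔNp63-labelled group. Uhrf1, which binds hemimethylated DNA and recruits the maintenance methyltransferase, was at 49.1 and 45.8 FPKM in control tumours, 7.998, 42.2 and 10.9 under the ΔNp63 label, and 9.09, 9.70 and 18.1 under the ΔNp73 label. For the entry used, it was below both controls in 6 of 6 libraries that received Cre (log2FC -1.54, SE 0.63, adjusted p = 0.369 for ΔNp63, log2FC -1.93, SE 0.63, adjusted p = 0.159 for ΔNp73). A second, less abundant entry of Uhrf1 was above both controls in replicate 2. Dnmt1, that methyltransferase, was at 35.4 and 29.9 FPKM in control tumours, 14.4, 32.2 and 14.2 under the ΔNp63 label, and 10.6, 14.8 and 17.9 under the ΔNp73 label, with log2FC -1.15, SE 0.37, adjusted p = 0.157 in the ΔNp73-labelled group. Chaf1a and Chaf1b, subunits of the histone chaperone that assembles nucleosomes behind the fork, were at 40.5% and 50.3% of control in that group. Brca1 and Brca2, which protect stalled forks and repair breaks, were low genes also below control. Brca1 was at 5.61 and 4.89 FPKM in control tumours, 1.09, 8.71 and 1.53 under the ΔNp63 label, and 1.38, 2.12 and 2.17 under the ΔNp73 label (log2FC -1.12, SE 0.60, adjusted p = 0.319 for ΔNp73). Brca2 was at 3.80 and 3.45 FPKM in control tumours, 0.742, 3.32 and 1.43 under the ΔNp63 label, and 1.10, 1.11 and 1.46 under the ΔNp73 label (log2FC -1.06, SE 0.35, adjusted p = 0.158 for ΔNp73), and replicate 2 was just below both controls for Brca2 and above them for Brca1.

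E2f2, an activating E2F, had the largest difference between the ΔNp63-labelled and ΔNp73-labelled groups among the 53. It was at 39.0 and 36.6 FPKM in control tumours, 19.6, 32.4 and 20.9 under the ΔNp63 label, and 8.33, 7.08 and 13.4 under the ΔNp73 label, the highest level of the 4 E2F members. The ΔNp73-labelled libraries were all below the ΔNp63-labelled ones, and these all below the controls, with no overlap. Between the groups labelled ΔNp73 and ΔNp63, E2f2 was at log2FC -1.26, SE 0.27, adjusted p = 0.345 by limma, with the smallest unadjusted p of the 53 (0.00183). No member passed that comparison (0 of 53 lower, against 0.0232% of all genes), 1 was lower at an unadjusted p under 0.05 (4.4% of all genes), and 2, E2f2 and Pola2, were lower without overlap (8.58%). In a second, less abundant entry of Pola2 these groups overlapped. The log2FC of E2f2 was -1.05 without replicate 2 (adjusted p = 0.125). It passed at -1.25 where libraries far from their group were given less weight (adjusted p = 0.0267), a fit whose share of all genes called is not given here. Against control E2f2 had the smallest adjusted p of the list in the ΔNp73-labelled group (log2FC -1.92, SE 0.30, adjusted p = 0.0676), beside log2FC -0.65, SE 0.30, adjusted p = 0.413 in the ΔNp63-labelled group. E2f8, an atypical E2F that represses E2F targets late in S phase, was described after its values were seen. It was at 26.7 and 25.5 FPKM in control tumours, 4.09, 19.7 and 4.71 under the ΔNp63 label, and 4.71, 5.85 and 7.6 under the ΔNp73 label, or 16.9% of control in ΔNp63-labelled replicates 1 and 3 and 23.2% in the ΔNp73-labelled group. The activators E2f1 and E2f3 had lower levels and were nearer to control, at 44.8% and 53.6% of control in the ΔNp73-labelled group.

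Over the whole list the direction between the groups labelled as deletions depended on 1 library. The median log2FC of the ΔNp73-labelled against the ΔNp63-labelled group was -0.41, with all 53 members below 0, where 51.9% of all genes were. Without replicate 2 the median was 0.12, and 12 members were below 0 (51.1% of all genes), among them E2f2. By limma 0 members then passed in either direction (0.0861% of all genes lower, 0.0626% higher). At an unadjusted p under 0.05, 1 was lower and 2 were higher (7.43% and 8.16% of all genes).

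Within replicate 2 of the ΔNp63-labelled group the members ran from 62.2% to 314% of control, with a median of 143.6%. Orc1, the cell-cycle-regulated subunit of the origin recognition complex, was the highest relative to control, at 9.99 FPKM against 3.63 and 2.72 (314%). It was followed by Tyms at 276%, Tk1 at 254%, Fen1 at 248%, Pola2 at 239.5%, Rfc5 at 239%, Pold2 at 216% and Pole, the leading-strand polymerase, at 203%. These 8 were the members above 200% of control there. At the other end Rrm2 was at 62.2%, Pcna at 73.2%, Gins1 at 75.3%, E2f8 at 75.3%, E2f2 at 85.7%, Uhrf1 at 88.9%, Brca2 at 91.7%, Pola1 at 92.3% and Rrm1 at 95.5%, the 9 members below both controls by the entry used. In replicates 1 and 3 the mean of 8 of these ran from 15.9% (Rrm2) to 36.5% (Pcna) of control, and that of E2f2 was 53.5%. In 9 members (Orc1, Pola2, Pold2, Rfc2, Rfc5, Rpa2, Fen1, Tyms and Tk1) replicate 2 brought the mean FPKM of the ΔNp63-labelled group above that of the controls, although the mean of log2 values was below. This is 1 library, so its order of genes has no replicate.

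**Figure D4:**
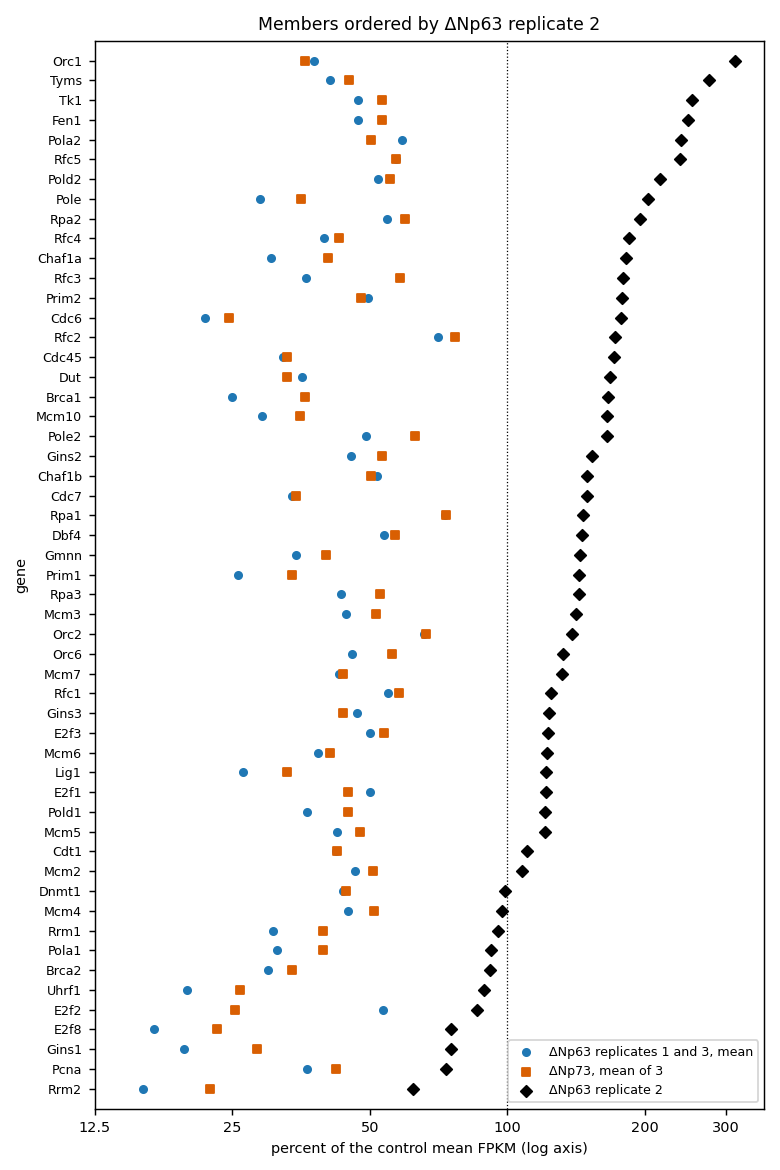
Each gene's FPKM as a percentage of the control mean (log axis) in ΔNp63-labelled replicate 2 (black diamonds), in ΔNp63-labelled replicates 1 and 3 (blue circles, mean) and in the ΔNp73-labelled group (orange squares, mean of 3). Genes are ordered by replicate 2, which runs from 62.2% for Rrm2 to 314% for Orc1, while all circles and squares lie below 100%.

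Promoter sequences are shown for members of several roles, since many genes of this kind are known to be transcribed under E2F factors. Whether E2F factors had a part in the lower levels was not tested. RefSeq promoter windows (GRCm38.p6, 250 bases before to 50 after an annotated start) matched 46 of the 53 genes. The E2F motif was searched on both strands in its 8-letter forms TTTCCCGC, TTTGGCGC, TTTCGCGC and TTTGCCGC, and in 7-letter forms that lack the leading T. At least 1 window held an 8-letter form in 18 of 46 members (39.1%), against 2.6% of 27025 genes with a window, and a 7-letter form in 31 of 46 (67.4%) against 10.9%. Every 8-letter match contains a 7-letter one. Because these letters contain CG, the shares among genes with at least 15 CG pairs in a window are given as well. They were 43.2% of 37 members against 5.49% of 10038 genes for the 8-letter forms, and 70.3% against 22.9% for the 7-letter forms. The CCAAT box (CCAAT) was in 63.0% of members and 41.1% of genes, and the CHR element (TTTGAA) of late cell cycle genes in 23.9% and 20.2%. In the CG-rich windows the shares were 62.2% and 40.5% for CCAAT, and 27.0% and 11.3% for CHR. The median log2FC in the ΔNp73-labelled group was -1.12 for the 31 members with a 7-letter form and -0.89 for the 15 without, given as a description with no test.
The 160 bases before the start are printed 5′ to 3′ in lower case for Mcm6, Mcm5, Cdc6, Orc1 and Pola1, which hold 8-letter matches there, and for Rrm2, the member with the largest difference, with E2F matches in capitals and overlapping matches as 1 run.
Mcm6 (chr1:128359706-128359865, minus strand): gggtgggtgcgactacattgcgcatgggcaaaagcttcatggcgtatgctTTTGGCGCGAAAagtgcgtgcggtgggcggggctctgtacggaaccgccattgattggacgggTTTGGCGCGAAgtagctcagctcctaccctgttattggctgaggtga
Mcm5 (chr8:75109349-75109508, plus strand): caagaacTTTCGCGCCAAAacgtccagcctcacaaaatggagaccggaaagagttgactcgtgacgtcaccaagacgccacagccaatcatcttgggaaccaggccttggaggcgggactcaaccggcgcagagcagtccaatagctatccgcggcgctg
Cdc6 (chr11:98907991-98908150, plus strand): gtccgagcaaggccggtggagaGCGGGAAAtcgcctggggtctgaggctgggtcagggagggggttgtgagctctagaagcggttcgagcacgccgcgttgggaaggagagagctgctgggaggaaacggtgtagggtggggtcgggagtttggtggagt
Orc1 (chr4:108579294-108579453, plus strand): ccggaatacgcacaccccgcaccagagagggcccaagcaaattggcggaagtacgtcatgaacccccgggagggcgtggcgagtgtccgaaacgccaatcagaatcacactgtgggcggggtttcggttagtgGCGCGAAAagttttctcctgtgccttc
Pola1 (chrX:93632156-93632315, minus strand): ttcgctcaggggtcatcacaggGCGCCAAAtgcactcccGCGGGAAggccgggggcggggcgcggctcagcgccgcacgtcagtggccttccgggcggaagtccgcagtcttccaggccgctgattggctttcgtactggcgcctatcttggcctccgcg
Rrm2 (chr12:24708094-24708253, plus strand): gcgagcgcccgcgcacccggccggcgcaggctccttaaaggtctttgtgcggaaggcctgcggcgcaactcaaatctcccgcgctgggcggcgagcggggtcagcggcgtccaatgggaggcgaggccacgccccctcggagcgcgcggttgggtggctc
The capitals begin 110 and 47 bases before the start in Mcm6, 153 in Mcm5, 138 in Cdc6, 27 in Orc1, and 138 and 121 in Pola1. The stretch of Rrm2 holds none of these letters, and a 7-letter match lies elsewhere in its 300-base window. A match describes the letters and was not tested for binding.

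Other genes of the replication pathway, from a list that leaves out the members, were mostly below control as well. Of 39 measured (from helicase loaders to topoisomerases and fork proteins), 38 were below control in the ΔNp73-labelled group and 34 in the ΔNp63-labelled group, with medians of -0.76 and -0.36. Among all genes, 56.7% and 52.3% were below control in these comparisons. By limma 0 of the 39 passed in either direction with all libraries, while 7 and 3 had an unadjusted p under 0.05 and were lower (9.83% and 7.03% of the whole table). Without replicate 2, 27 fell and 1 rose in the ΔNp73-labelled group (16.1% and 16.8% of all genes), and 25 fell and 1 rose in the ΔNp63-labelled group (10.8% and 11.7%). Top2a, which untangles replicated DNA, was at 173 and 149 FPKM in control tumours, 23.0, 139 and 25.05 under the ΔNp63 label, and 29.2, 31.9 and 52.9 under the ΔNp73 label (log2FC -2.10, SE 0.73, adjusted p = 0.173 for ΔNp73). Top1, which relieves torsion ahead of the fork, was at 77.6 and 75.3 FPKM in control tumours, 54.4, 49.3 and 60.4 under the ΔNp63 label, and 53.2, 60.2 and 70.7 under the ΔNp73 label, with replicate 2 the lowest library (log2FC -0.48, SE 0.17, adjusted p = 0.312 for ΔNp63, log2FC -0.32, SE 0.17, adjusted p = 0.306 for ΔNp73). Mcm9, a relative of the MCM subunits that acts in repair, was at 4.08 and 4.02 FPKM in control tumours, 2.45, 2.97 and 3.05 under the ΔNp63 label, and 2.13, 2.13 and 2.82 under the ΔNp73 label (log2FC -0.59, SE 0.16, adjusted p = 0.119).

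Regulators of S phase entry and other genes of nucleotide metabolism were compared in the same way. Of 18 regulators, 17 were below control in the ΔNp73-labelled group (median -0.60, beside 56.7% of all genes) and 16 in the ΔNp63-labelled group (median -0.41, beside 52.3%). With all libraries 0 passed (7 and 3 lower at an unadjusted p under 0.05, beside 9.83% and 7.03% of the whole table). Without replicate 2, 12 and 11 fell (16.1% and 10.8%). E2f7, the partner of E2f8, was at 5.02 and 4.53 FPKM in control tumours, 0.777, 4.68 and 0.772 under the ΔNp63 label, and 0.694, 1.01 and 1.29 under the ΔNp73 label (log2FC -1.54, SE 0.49, adjusted p = 0.149 for ΔNp73). Rb1 and Rbl1, pocket proteins that hold E2F factors in check, were below control too. Rb1 was at 44.2 and 52.1 FPKM in control tumours, 25.3, 25.9 and 27.98 under the ΔNp63 label, and 30.0, 33.0 and 35.7 under the ΔNp73 label, so that in this gene replicate 2 was with its group (log2FC -0.84, SE 0.14, adjusted p = 0.152 for ΔNp63). Rbl1 was at 22.5 and 22.4 FPKM in control tumours, 9.91, 18.5 and 12.51 under the ΔNp63 label, and 12.3, 14.1 and 16.2 under the ΔNp73 label (log2FC -0.72, SE 0.25, adjusted p = 0.311 for ΔNp63). Of 25 other genes of nucleotide metabolism, 23 were below control in the ΔNp73-labelled group (median -0.36, beside 56.7% of all genes) and 16 in the ΔNp63-labelled group (median -0.06, beside 52.3%). By limma 0 passed the threshold (2 and 3 lower at an unadjusted p under 0.05, near the 9.83% and 7.03% of the whole table). Without replicate 2, 10 fell and 1 rose in the ΔNp73-labelled group (16.1% and 16.8% of all genes), and 14 fell and 1 rose in the ΔNp63-labelled group (10.8% and 11.7%). The riser in both was Samhd1, whose product breaks deoxynucleotides down. Its FPKM were 15.1 and 12.9 (controls), 32.9, 5.24 and 35.0 (ΔNp63) and 40.2, 46.1 and 35.2 (ΔNp73). Dck, the kinase that salvages deoxycytidine, was at 136 and 143 FPKM in control tumours, 58.5, 77.5 and 90.2 under the ΔNp63 label, and 60.0, 73.5 and 97.0 under the ΔNp73 label, below both controls in 6 of 6 libraries with Cre (log2FC -0.90, SE 0.25, adjusted p = 0.251 for ΔNp63, log2FC -0.88, SE 0.25, adjusted p = 0.126 for ΔNp73). Impdh1, a guanine nucleotide enzyme, was also below both controls in all 6 (log2FC -0.70, SE 0.14, adjusted p = 0.0818 for ΔNp73). Rrm2b, the form of the reductase subunit induced by p53, was at 10.1 and 11.0 FPKM in control tumours, 6.69, 8.002 and 8.27 under the ΔNp63 label, and 9.39, 9.85 and 10.2 under the ΔNp73 label. All 3 ΔNp63-labelled libraries were below both controls (log2FC -0.42, SE 0.14, adjusted p = 0.311), while ΔNp73-labelled and control libraries overlapped (log2FC -0.09, SE 0.14, adjusted p = 0.734).

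Markers of other cells were mostly above control in the same libraries. Among all genes, 56.7% were below control in the ΔNp73-labelled group and 52.3% in the ΔNp63-labelled group. In bulk tissue, fewer dividing cells and less RNA per cell cannot be told apart. All 18 measured macrophage and monocyte markers were above control in both groups (medians 1.57 for ΔNp73 and 1.07 for ΔNp63, with 18 and 11 higher at an unadjusted p under 0.05, against 11.4% and 5.96% of all genes). With all libraries 0 passed, where 0.0464% and 0.031% of all genes were called higher, and without replicate 2, 18 and 16 rose (16.8% and 11.7% of all genes). Summed over the 19 of that list in the table, FPKM was 430 to 487 in the controls, 1213 to 1253 in ΔNp63-labelled replicates 1 and 3, 485 in replicate 2 and 1156 to 1534 in the ΔNp73-labelled group. Csf1r, the growth factor receptor of macrophages, was at 9.46 and 8.99 FPKM in control tumours, 29.4, 11.9 and 24.6 under the ΔNp63 label, and 35.2, 36.5 and 31.0 under the ΔNp73 label. Replicate 2, in which most replication genes were high, was thus near the controls for this list. Fibroblast and stroma markers were above control in 18 of 19 (ΔNp73, median 1.27) and 16 of 19 (ΔNp63, median 0.58), with 15 and 8 higher at an unadjusted p under 0.05 (11.4% and 5.96% of all genes). With all libraries Col1a2 alone passed, in the ΔNp73-labelled group (log2FC 2.18, SE 0.23, adjusted p = 0.0475), and without replicate 2, 17 rose in that group (16.8% of all genes) and 10 in the ΔNp63-labelled group (11.7%). Their summed FPKM was 1416 to 1667 in the controls, 1104 to 1200 in replicates 1 and 3, 848 in replicate 2 and 1129 to 1281 in the ΔNp73-labelled group. Thy1, which stromal cells share with T cells, is on both lists, is the exception in the ΔNp73-labelled group and makes up most of this sum. Summed over the other 18 markers, FPKM was 188 to 194 in the controls, 400.4 to 483.5 in replicates 1 and 3, 212 in replicate 2 and 554 to 667 in the ΔNp73-labelled group, so the direction of the sum turned with Thy1. Endothelial markers had medians of 0.70 and 0.33, neutrophil markers of 1.27 and -0.08, B cell markers of 0.37 and -0.22 and epithelial markers of 0.49 and -0.14 in the ΔNp73-labelled and ΔNp63-labelled groups. Without replicate 2 the ΔNp63-labelled medians were 0.45, 0.81, 0.55 and 0.46 in the same order, above 0 in all 4 lists. Summed FPKM of the 12 endothelial markers was 31.0 to 39.4 in the controls, 41.3 to 54.4 under the ΔNp63 label and 49.0 to 88.2 under the ΔNp73 label. For the 9 B cell markers it was 36.9 to 40.4, 8.49 to 78.97 and 49.96 to 55.9. For the 12 neutrophil markers it was 179.7 to 686, 59.2 to 786.5 and 960.1 to 1601, and for the 10 epithelial markers 446 to 469, 106 to 674 and 543 to 958. The lowest ΔNp63-labelled sum was that of replicate 2 in each of these 4 lists. None of the markers measured was under 1 FPKM in all libraries. Thymocyte and T cell markers were below control in 21 of 22 (ΔNp73, beside 56.7% of all genes) and 20 of 22 (ΔNp63, 52.3%), with medians of -0.76 and -0.63. With all libraries 0 passed by limma (9 and 5 lower at an unadjusted p under 0.05, beside 9.83% and 7.03% of the whole table). Without replicate 2, 12 fell in the ΔNp73-labelled group (16.1% of all genes) and 3 in the ΔNp63-labelled group (10.8%), where the median was -0.46. Thy1 was at 1222 and 1479 FPKM in control tumours, 620.5, 636 and 799.6 under the ΔNp63 label, and 462, 575 and 642 under the ΔNp73 label (log2FC -1.28, SE 0.21, adjusted p = 0.0731 for ΔNp73). In replicate 2 the T cell median was -0.98 relative to control, lower than in replicates 1 and 3 (-0.60 and -0.32), while its replication genes were at 0.51. The part of these cell markers in the lower levels of replication genes was not tested.

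**Figure D5:**
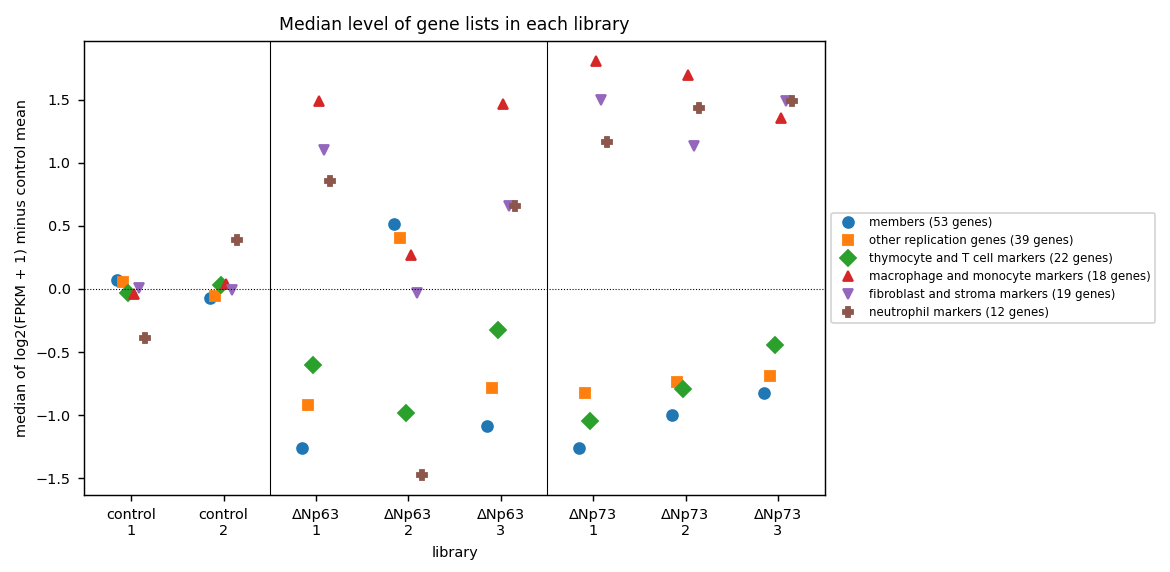
Median over each gene list of log2(FPKM + 1) minus the control mean, by library. The 53 replication genes lie between -1.26 and -0.83 in the ΔNp73-labelled libraries, where macrophage markers lie between 1.36 and 1.81; in ΔNp63-labelled replicate 2 the order is 0.51 and 0.27.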

How the data were processed

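RNA was sequenced from 8 thymic lymphomas (TRIzol LS extraction and an Illumina TruSeq RNA kit, per the labels). The file deposited by the authors is a table of FPKM per RefSeq transcript, which its name marks as quantile-normalised. With the 16589 entries of each library sorted by value, libraries differed by over 1% at 14.0% of the ranks. A shift in the total RNA of a library is hidden by this step. TopHat2 2.0, Cufflinks 2.0 and build mm9 are named in the submitters' processing notes; the role of each tool and the depth are not given in the sources used here.

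The entry with the highest mean was kept per symbol (2113 symbols had more than 1). The tests used limma 3.58.1 (R 4.3.3) on the log2(FPKM + 1) scale (3 groups in 1 model, empirical Bayes with an intensity trend, 5 residual degrees of freedom, two-sided), tested on simulated data, and log2FC are on that scale, which understates changes of low genes. No batch, pair or sex is given in the labels. Of the named genes, 22 followed a rule: per role the highest mean and the smallest p, and the 3 smallest changes per comparison with control. A further 4 (E2f8, Rrm1, Mcm6 and Cdc6) were chosen after their values were seen, and other members are given as percentages of control. For each other list, the up to 3 genes with the smallest p were eligible. Samhd1 is outside that rule and was named after its values were seen, as the riser of its list without ΔNp63-labelled replicate 2. The members and lists were chosen with earlier results of these data known. Alternatives were another pseudocount, other filters, summed entries, no trend, library weights, only 2 groups, median centring and leaving out each library.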

Additional observations from a re-analysis of the deposited data

How the results depend on the processing

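The number of members past the threshold depended on ΔNp63-labelled replicate 2. Leaving out each library in turn gave 0 to 52 members lower in the ΔNp63-labelled comparison and 0 to 51 in the ΔNp73-labelled one, and in each the upper value was that without this replicate. Library weights gave 53 and 53, and using only the 2 groups compared gave 51 for the ΔNp73-labelled group. Between the ΔNp73-labelled and ΔNp63-labelled groups, library weights called 1 member lower. The median log2FC of that comparison, -0.41, became 0.10 with library weights and ran from -0.76 to 0.12 with single libraries left out. The cause was not tested. With single libraries left out, the ΔNp63-labelled log2FC ran from -0.91 to 0.16 for Pold2, from -0.68 to 0.28 for Pola2, from -0.49 to 0.16 for Rfc2, from -0.75 to 0.28 for Rfc5 and from -0.44 to 0.0585 for Rpa1, with the lowest value without replicate 2 each time. Of 846 values of the 26 named members under 16 alternatives, 707 kept direction and side of the threshold, 126 passed where they had not and 13 reversed. An FPKM of at least 5 kept 50 members. No paired analysis was possible because the labels give no replicate numbers shared between groups. With 2 controls and no counts, sampling error could not be estimated, and 5 residual degrees of freedom limit what can be called.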

Other observations

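Of the members, 12 have more than 1 transcript entry in the table, and the entries with lower means were not used above. The second entry of Cdc45 was at 4.20 and 4.30 FPKM (controls), 0.456, 11.6 and 1.06 (ΔNp63) and 0.982, 1.14 and 2.32 (ΔNp73), so replicate 2 was again the highest. The second entry of Gins1 was at 9.98 and 8.12 (controls), 5.31, 11.4 and 2.502 (ΔNp63) and 2.28, 3.30 and 4.46 (ΔNp73). For this entry replicate 2 was above both controls, while for the entry used it was below both. The same held for Uhrf1, whose second entry was at 9.99 and 10.2 (controls), 3.87, 13.4 and 3.83 (ΔNp63) and 4.31, 4.82 and 4.22 (ΔNp73). The second entry of Pola2 was at 5.92 and 8.53 (controls), 3.79, 9.36 and 6.49 (ΔNp63) and 4.22, 5.50 and 3.47 (ΔNp73). Unlike the entry used, it was higher in ΔNp63-labelled replicate 3 than in control replicate 1. The ΔNp73-labelled and ΔNp63-labelled libraries also overlapped in it.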
